A study of Danio rerio with 4 samples.

Results

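The contacts described here join pairs of primers that both lie in the high-coordinate flank of the zebrafish major alpha/beta-globin domain, on chromosome 3 of danRer7. They were measured by 5C (carbon-copy chromosome conformation capture). A pair was taken when the midpoints of both primers were above 55992000. The flank held 14 forward and 20 reverse primers, over a stretch of 35.1 kb that begins at 55992481. They make 280 of the 6699 pairs in the matrices (4.18%). Primers are named with F (forward) or R (reverse) and the number given in the files. Distances run from midpoint to midpoint.

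In 5C, fixed chromatin is digested and ligated, which joins fragments that were near each other in the nucleus. Forward and reverse primers are annealed to the junctions and ligated to each other, and each read then reports 1 forward and 1 reverse primer. Contacts between neighbouring fragments are usually the most frequent, and the frequency falls with distance along the chromosome. The major globin locus of zebrafish carries its embryo-larval and its adult globin genes in separate groups, and a remote enhancer of the locus lies in an intron of nprl3, a gene outside the globin groups. The red blood cells of fish are nucleated, and their chromatin can therefore be assayed in blood. In the RefSeq table of the assembly GRCz12tu, mpg and nprl3 are next to the adult genes and kank2 and dock6 are next to the embryo-larval genes. No gene is assigned to the flank, because positions in danRer7 were not used here.

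The study compared blood cells of adult fish (2 libraries) with blood cells of larvae at 18 days post fertilisation (2 libraries), all fixed with 2% formaldehyde for 10 min. The labels name the stage and the cell type and describe 2 biological replicates. No strain, genotype or treatment is given for either group, and no marker of the cell type could be checked because no expression was measured. Nothing further says that the libraries came from separate fish, so the spread behind each p-value may be technical.

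The adult libraries held 65450 counts (replicate 1) and 38494 counts (replicate 2), and the larvae libraries 20801 and 6539. Of these, 1758, 1087, 1146 and 302 counts fell on pairs within the flank. A pair at 0 may still hold up to 3 counts, or 0.00458%, 0.00779%, 0.0144% and 0.0459% of these totals. Limits and intervals cover only counting error, because PCR copies were not told apart by molecular identifiers. Values of the libraries of a stage are given in the order replicate 1, replicate 2. They are raw counts, CPM (counts scaled to the same library total) or a share of the library total in percent. Shares and other single values carry no test, because the smallest p of an exact two-sided permutation test of 2 against 2 libraries is 0.333.

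Contacts within the flank took a larger part of the reads in larvae than in adults. Their share of all counts was 2.69% (95% exact binomial interval 2.56 to 2.81%) in adult replicate 1 and 2.82% (2.66 to 2.99%) in adult replicate 2. It was 5.51% (5.20 to 5.83%) in larvae replicate 1 and 4.62% (4.12 to 5.16%) in larvae replicate 2. The means were 2.76% ± 0.097 in adults and 5.06% ± 0.63 in larvae (mean ± SD of 2 libraries), and the stages did not overlap. A set of 3 pairs between the central blocks has the highest counts of the whole table and takes a larger part of the larvae libraries. Without them the share of the flank was 3.32% ± 0.21 in adults and 7.19% ± 0.20 in larvae.

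Much of this rise lay in pairs of primers that are very close, down to 0.103 kb. The enzyme and the assignment of reads to pairs are not given. Whether pairs under 1 kb join neighbouring or partly digested fragments could therefore not be told. The 20 pairs under 1 kb held 383 of 1758 flank counts (21.8%) in adult replicate 1 and 17.1% in adult replicate 2. They held 47.1% in larvae replicate 1 and 35.4% in larvae replicate 2. With only pairs at least 1 kb apart, the share of the flank was 2.50% ± 0.19 in adults and 3.34% ± 0.032 in larvae (mean ± SD, n = 2 each). With only pairs at least 5 kb apart it was 1.60% ± 0.17 and 1.90% ± 0.040. The stages still did not overlap in either case, but the ratio of larvae to adults, taken between geometric means, fell from 1.83 to 1.34 and 1.19. Among pairs at least 1 kb apart, F285-R281 (1.31 kb) had 100 and 29 counts in larvae and 12 and 4 in adults. F307-R310 (1.58 kb) had 47 and 16 in larvae and 10 and 10 in adults. The share at 1 kb or more without these pairs was not computed, so a rise across the other pairs is not shown. The share at 5 kb or more does not contain them.

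Other contacts of the same primers were also more frequent in larvae. Pairs with at least 1 primer in the flank took 11.1% and 11.5% of the counts in the 2 adult libraries and 19.6% and 17.2% in the 2 larvae libraries. Of the reads of flank primers, 24.2% and 24.6% stayed within the flank in the adult libraries and 28.2% and 26.9% in the larvae libraries. This part was higher in both larvae libraries, but with only pairs at least 1 kb apart it turned to 20.7% ± 0.97 in adults and 18.3% ± 1.48 in larvae, and with pairs at least 5 kb apart to 12.6% ± 1.04 and 9.95% ± 1.27. Partners from 55962000 to 55992000, the central block next to the flank, took 33.2% ± 0.83 of the reads in adults and 35.7% ± 2.23 in larvae. Partners in the other central block, from 55943000 to 55962000, took 13.3% ± 0.56 and 11.8% ± 0.62. Partners in the opposite, low-coordinate flank took 29.1% ± 0.59 and 25.0% ± 0.71.

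Set beside the contacts within the other 3 regions, the flank had a ratio of larvae to adults nearest to that of the neighbouring central block. The arithmetic mean of the share in larvae over that in adults was 1.84 within the flank and 1.64 within the block from 55962000 to 55992000. It was 1.04 within the low-coordinate flank and 0.481 within the block from 55943000 to 55962000. Differences between these ratios cannot be tested with 2 libraries per stage.

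Averaged over pairs, short-range counts within the flank were low in adults and higher in larvae, where a few pairs held many of them. Mean CPM per pair under 1 kb was 267 ± 36.1 in adults and 1058 ± 339 in larvae (mean ± SD of 2 libraries), and the lower larvae library still had 818. In larvae replicate 1, F271-R272, F273-R272 and F275-R272 held 117, 100 and 89 of the 540 counts under 1 kb. In larvae replicate 2 they held 25, 16 and 3 of 107. In the adult libraries they held 10, 0 and 0 of 383 and 8, 0 and 0 of 186. Pairs of the same distance elsewhere in the domain, without the 3 strongest pairs of the table, had 1002 ± 4.56 in adults and 902 ± 153 in larvae. The flank in adults was thus well under the average of the other pairs, and the flank in larvae was near it. From 1 to 2 kb the flank had 236 and 281 CPM per pair in adults and 667 and 663 in larvae. Of the 208 and 65 larvae counts at this distance, F285-R281 held 100 and 29, and F307-R310 held 47 and 16. Of the 232 and 162 adult counts, F285-R281 held 12 and 4, and F307-R310 held 10 and 10. Whether larvae were higher from 1 to 2 kb without these pairs was not tested. From 2 to 5 kb the order turned, with 187 and 182 in adults and 146 and 136 in larvae. Elsewhere in the domain larvae were lower at that distance as well, with 329 ± 10.8 against 475 ± 23.0 in adults. From 5 to 10 kb the flank had 89.2 and 101 in adults and 142 and 184 in larvae, again with no overlap. From 10 to 20 kb larvae were lower by a narrow margin, with 47.6 and 58.4 in adults and 27.2 and 46.5 in larvae. From 20 to 40 kb the stages overlapped, with 31.6 and 38.2 in adults and 53.5 and 27.5 in larvae. The last class held only 99 and 16 counts in the larvae libraries.

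Counts fell more steeply with distance in larvae. The slope of log2 mean CPM on log2 mean distance over the 6 distance classes was -0.57 and -0.49 in the 2 adult libraries and -0.91 and -0.85 in the 2 larvae libraries. Elsewhere in the domain, over the same classes, the slope was -0.57 ± 0.0036 in adults and -0.60 ± 0.0036 in larvae (mean ± SD, n = 2 each). With only pairs at least 1 kb apart the slopes within the flank were -0.72 ± 0.024 in adults and -0.99 ± 0.057 in larvae. Over pairs above 0 alone, which leaves out the pairs with no read, the slope was -0.22 in adults and -0.23 in larvae, so the steeper fall in larvae was not seen there.

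**Figure D1:**
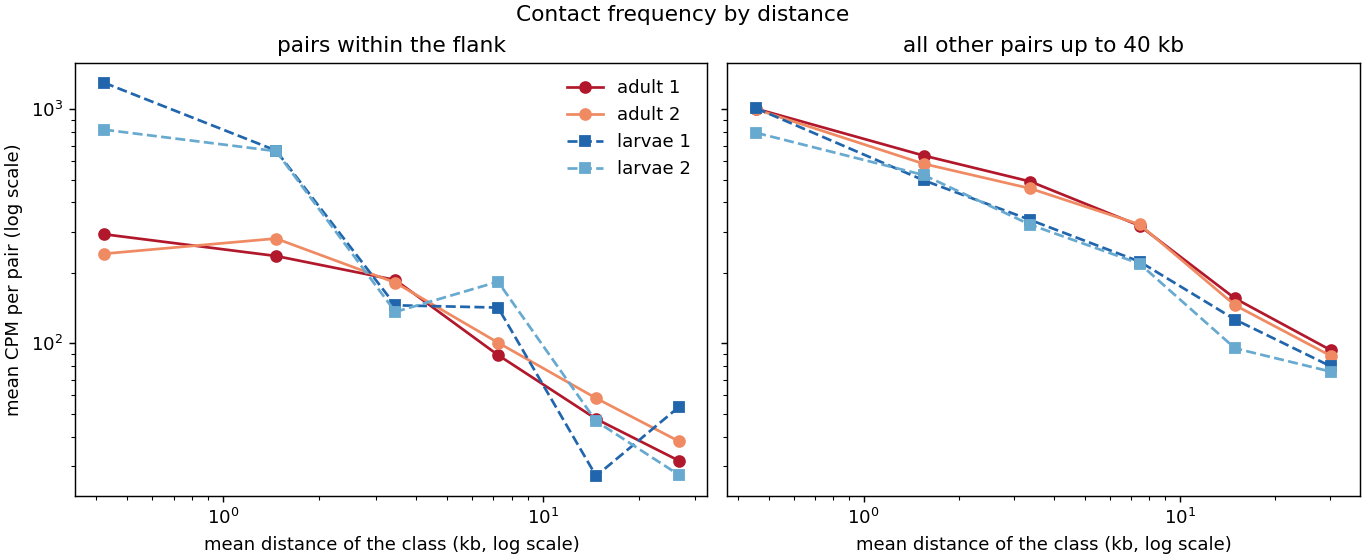
Mean CPM per pair (log axis) by mean distance of the class in kb (log axis) for the 4 libraries, within the flank (left) and for all other pairs up to 40 kb (right). Under 2 kb both larvae libraries lie above both adult libraries within the flank, by 1058 against 267 CPM under 1 kb on average, while elsewhere larvae lie below adults from 2 to 10 kb (329 against 475 CPM from 2 to 5 kb).

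Given distance alone, the flank held fewer contacts than the average of the domain, in adults most of all. The sum of CPM within the flank, divided by the sum expected from the mean of all pairs in the same distance class and library, was 0.354 and 0.385 in adult replicates 1 and 2. It was 0.829 and 0.786 in the 2 larvae libraries. The low-coordinate flank had 0.520 ± 0.0033 in adults and 0.651 ± 0.029 in larvae, and the neighbouring central block 0.522 ± 0.0077 and 1.03 ± 0.086. The other central block had 2.89 ± 0.019 in adults and 1.68 ± 0.099 in larvae. Contacts within that block alone were above expectation in adults, so a low value in adults was not particular to the flank. The order of the stages depended on the expectation. When each primer had its own term beside distance, which takes account of how many reads a primer collects in all, observed over expected within the flank was 1.36 and 1.28 in adults and 0.909 and 0.871 in larvae. Relative to the reads their primers collected, flank contacts were thus above expectation in adults and below it in larvae, and the ratio of larvae to adults turned from 2.19 to 0.675. The neighbouring central block was closer to expectation but had the same order, with 1.04 ± 0.023 in adults and 0.985 ± 0.014 in larvae. The low-coordinate flank had 0.904 ± 0.0037 and 0.974 ± 0.028, and the other central block 1.10 ± 0.0067 and 1.12 ± 0.073.

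To place the change along the flank, counts were summed over pairs of 10 kb bins laid from the border. Bin 1 (55992000 to 56001999) held 14 primers, bin 2 (56002000 to 56011999) held 8, bin 3 (56012000 to 56021999) held 3 and bin 4 (from 56022000) held 9. The 3 primers of bin 3 are all reverse primers, so no pair lies within it. Contacts within bins 1, 2 and 4 passed the test as higher in larvae, and none of the pairs of different bins did. Of the 8 flank bin pairs tested 3 were higher in larvae (37.5%) and 0 were higher in adults, against 19.6% and 17.9% of the 112 bin pairs tested in the whole domain (edgeR quasi-likelihood test, Benjamini-Hochberg over all 112). In either direction the share was 37.5% in the flank and 37.5% over all 112, so flank bin pairs did not pass more often than the background. No flank bin pair was higher in adults at an unadjusted p under 0.05 either (0 by edgeR and 0 by DESeq2).

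Within bin 4, at the far end of the region, the share of all counts was 0.325% and 0.322% in the 2 adult libraries and 0.837% and 0.795% in the 2 larvae libraries. Both larvae libraries lay above both adult libraries (log2 change, adult minus larvae, -1.33 ± 0.18 SE, adjusted p = 0.00658, edgeR). With only pairs at least 1 kb apart the change within bin 4 was -1.72 ± 0.31 (adjusted p = 0.000133, edgeR). Of the 174 and 52 larvae counts within bin 4, F307-R310 (1.58 kb) held 47 and 16, and F303-R302 (0.329 kb) held 44 and 11. Of the 213 and 124 adult counts, F307-R310 held 10 and 10, and F303-R302 held 0. The change within bin 4 without these pairs was not tested. Within bin 2 a single pair, F285-R281, held 100 of the 179 and 29 of the 55 counts in the larvae libraries. In the adult libraries it held 12 of 325 and 4 of 155. The change within bin 2 without this pair was not tested. With all pairs, the share of bin 2 was 0.497% and 0.403% in adults and 0.861% and 0.841% in larvae, also without overlap (log2 change -0.91 ± 0.19 SE, adjusted p = 0.0190, edgeR). This call was lost when either adult library or larvae replicate 1 was left out (adjusted p = 0.0882, 0.264 and 0.0706, edgeR), and with DESeq2 (adjusted p = 0.0506).

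Within bin 1, next to the border, the share was 0.732% and 0.753% in adults and 2.49% and 1.48% in larvae (log2 change of -1.44 ± 0.25 SE, adjusted p = 0.0126, edgeR). The larvae libraries differed from each other by more than the adult libraries did, and both were above them. This rise lay in pairs under 1 kb. Without those, the share within bin 1 was 0.522% ± 0.026 in adults and 0.514% ± 0.014 in larvae (mean ± SD of 2 libraries), and the log2 change was -0.05 ± 0.26 (adjusted p = 0.871, edgeR).

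Contacts between bins did not pass the test. Bins 1 and 2 shared 0.640% and 0.769% of the counts in adults and 0.673% and 0.994% in larvae (log2 change of -0.19 ± 0.26 SE, adjusted p = 0.583, edgeR). Bins 1 and 4, the ends of the flank, shared 0.128% and 0.177% in adults and 0.341% and 0.184% in larvae (log2 change of -0.86 ± 0.40 SE, adjusted p = 0.135, edgeR). That pair of bins passed as higher in larvae with only pairs at least 1 kb apart (log2 change -0.93 ± 0.38, adjusted p = 0.0472, edgeR) and without larvae replicate 2 (adjusted p = 0.0440, edgeR). Of the counts between bins 1 and 4, a single pair, F275-R304 (23.7 kb), held 51 of 71 and 3 of 12 in the larvae libraries. It had 0 in both adult libraries. The change of bins 1 and 4 without it was not tested. It is named here for its part in these counts, not by the rule for named pairs. Bins 2 and 3 had 8 and 6 counts in adults and 0 in both larvae libraries, too few to be tested.

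**Figure D2:**
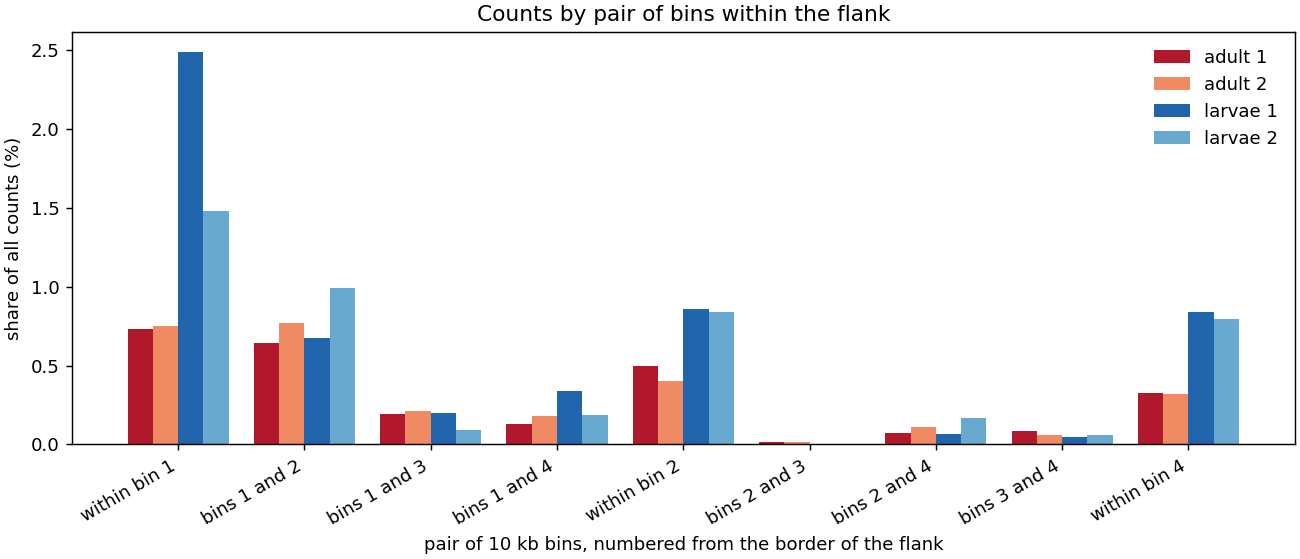
Share of all counts (percent) in each pair of 10 kb bins within the flank, 1 bar per library, with bins numbered from the border. The larvae bars are higher within bins 1, 2 and 4, and the bars of bins 1 and 3 or bins 3 and 4 overlap between stages.

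Single pairs changed in both directions. Of the 280 pairs, 118 had a read in at least 1 library and 39 passed the filter on low counts. Since a pair could pass through the stage in which it was high, the tested pairs are not all pairs of the flank. Of the 39 tested, 15 were higher in larvae (38.5%), 11 were higher in adults (28.2%) and 13 did not pass. Of these 39, 17 had reads in 1 stage only, and all 17 are among the calls, 10 higher in larvae and 7 in adults. Such pairs passed the filter through the stage in which they were high, so they are described below by bounds in place of their p. The other 22 had reads in both stages, and 5 were higher in larvae and 4 in adults. When only pairs with reads in both stages were fitted, 5 and 2 passed. With no filter 31 were higher in larvae and 41 in adults, so the order of the counts depended on the filter. Over the 679 pairs tested in the whole domain these shares were 24% and 46.1%, and 70.1% passed in either direction (edgeR quasi-likelihood test, Benjamini-Hochberg over all 679). Without larvae replicate 1 only 5 flank pairs were higher in larvae and 2 in adults. Pairs higher in adults numbered 6 and 1 without adult replicates 1 and 2, and 20 without larvae replicate 2. The median log2 change, adult minus larvae, was -0.66 for the flank pairs tested and 1.08 for all pairs tested.

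Among the strongest pairs of the flank, 4 joined neighbouring primers from F271 to F275 in bin 1. F271-R272, with F271 at 55997804 to 55997833 and R272 0.652 kb away, had 10 and 8 counts in the 2 adult libraries and 117 and 25 in the 2 larvae libraries. In CPM this was 180 ± 38.9 in adults and 4724 ± 1274 in larvae (mean ± SD, n = 2 each), with no overlap (log2 change -4.56 ± 0.57 SE, adjusted p = 1.03e-13, edgeR). The next forward primers, F273 (55998738 to 55998767) and F275 (55999271 to 55999300), also paired with R272 in larvae. F273-R272, 0.282 kb apart, had 100 and 16 counts in larvae and 0 in both adult libraries. Against the 28.9 CPM that 3 counts over both adult libraries allow, it was at least 126-fold higher by the mean of the larvae libraries. In larvae replicate 2 alone it was at least 84.8-fold higher. F275-R272, 0.815 kb apart, had 89 and 3 counts in larvae and 0 in adults, at least 82.1-fold higher by the mean but at least 15.9-fold in larvae replicate 2 alone. F273-R274, 0.430 kb apart, had 50 and 13 counts in larvae and 0 in adults. It was at least 76.1-fold higher by the mean and 68.9-fold in larvae replicate 2 alone.

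Other strong pairs lay in bins 2 and 4. F285-R281, with F285 at 56006084 to 56006113, lies in bin 2, and its primers are 1.31 kb apart. It had 12 and 4 counts in adults and 100 and 29 in larvae, with no overlap in CPM (144 ± 56.2 and 4621 ± 263, log2 change -4.73 ± 0.58 SE, adjusted p = 6.67e-14, edgeR). F307-R310, with F307 at 56025467 to 56025496, lies in bin 4, and its primers are 1.58 kb apart. It had 10 and 10 counts in adults and 47 and 16 in larvae (206 ± 75.7 and 2353 ± 133 CPM, log2 change -3.33 ± 0.72 SE, adjusted p = 1.76e-05, edgeR). Without adult replicate 1 the adjusted p of F307-R310 was 0.0606 (edgeR).

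Among the other pairs higher in larvae, some joined close primers and some joined primers farther apart. F303-R302 (0.329 kb) had 44 and 11 counts in larvae, and F287-R288 (0.603 kb) had 20 and 4, and both had 0 in adults. By the mean they were at least 65.8-fold and 27.2-fold higher, and in larvae replicate 2 alone 58.3-fold and 21.2-fold. F287-R291 (2.63 kb) had 14 and 3 counts and 0 in adults, at least 19.6-fold higher by the mean and 15.9-fold in larvae replicate 2 alone. The call of F287-R291 was lost when either adult library was left out (log2 change -6.50 without adult replicate 1 and -6.93 without adult replicate 2). It was not tested when either larvae library was left out. F273-R283, 7.17 kb apart, had 20 and 6 counts in larvae and 0 in adults. It was at least 32.5-fold higher by the mean and 31.8-fold in larvae replicate 2 alone. F277-R297, 17.8 kb apart, had 22 and 3 counts in larvae and 0 in adults. It was at least 26.3-fold higher by the mean and 15.9-fold in larvae replicate 2 alone. Of the 15 pairs higher in larvae, 6 were under 1 kb and 5 were at least 5 kb apart, and 10 had no read in either adult library.

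**Figure D3:**
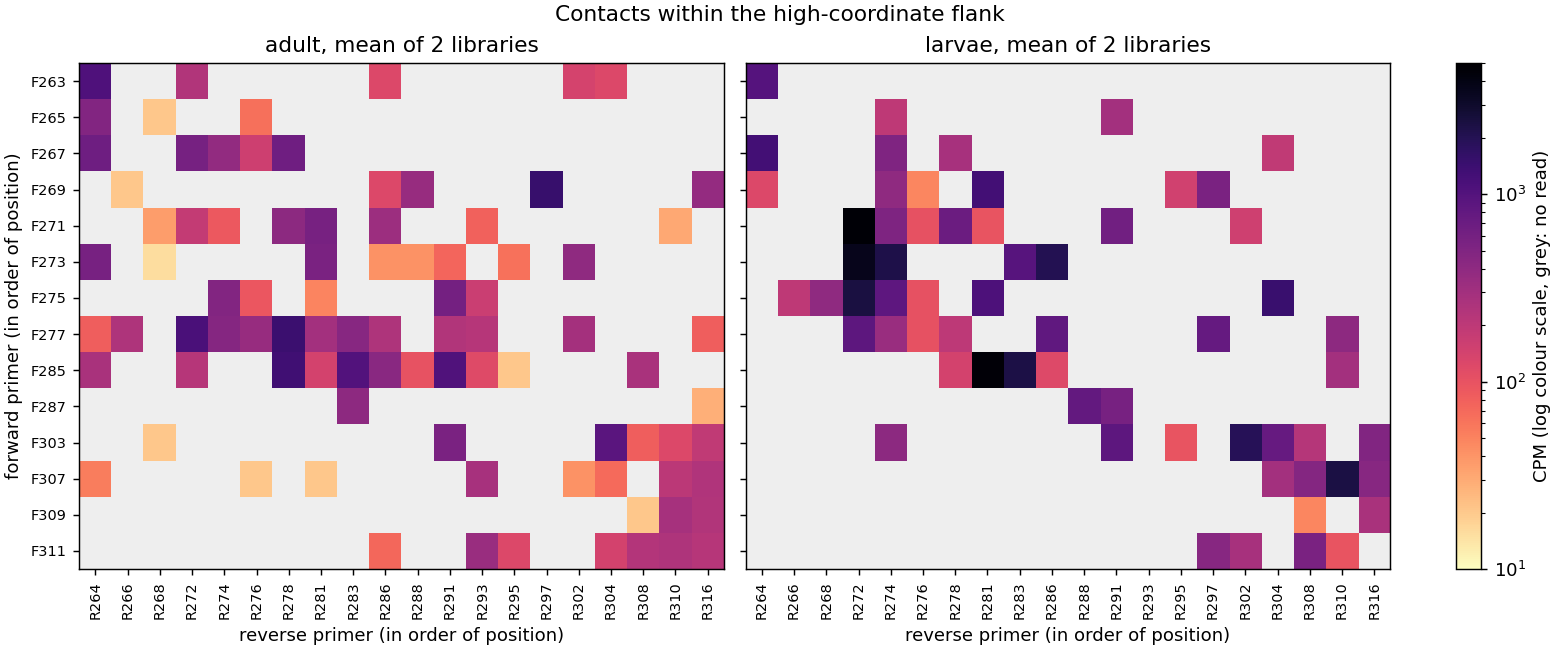
Mean CPM (log colour scale) of every forward primer (rows) with every reverse primer (columns) of the flank, in order of position, for adults (left) and larvae (right). Grey cells had no read. The darkest larvae cells are F271-R272 and F285-R281 (4724 and 4621 CPM), which have 180 and 144 CPM in adults, while the adult map has reads in more cells.

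Of the 11 pairs higher in adults, 1 was under 1 kb and 5 were at least 5 kb apart. Of the 39 pairs tested, 11 and 14 were at these distances. Of the 11 pairs, 7 had no read in either larvae library. F277-R278, with F277 at 56001868 to 56001897 and R278 1.65 kb away, had 75 and 66 counts in adults and 2 and 2 in larvae. This was 1430 ± 402 CPM in adults and 201 ± 148 in larvae, with no overlap (log2 change 3.33 ± 0.90 SE, adjusted p = 0.000434, edgeR). Without adult replicate 2 or larvae replicate 1 its adjusted p was 0.0966 and 0.0864 (edgeR). F285-R278, from the other side of R278 and 2.57 kb away, had 63 and 65 counts in adults and 6 and 0 in larvae (log2 change of 2.84 ± 0.86 SE, adjusted p = 0.00168, edgeR, and 0.155 without adult replicate 2). F285-R291 (4.27 kb) had 89 and 29 counts in adults and 0 in larvae. Against the 110 CPM that 3 counts over both larvae libraries allow, it was at least 9.63-fold higher by the mean of the adult libraries. In adult replicate 2 alone it was at least 6.87-fold higher.

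The longest contact among the strong pairs was F269-R297, with F269 at 55995701 to 55995730 and R297 23.9 kb away. It had 93 and 60 counts in adults, 1490 ± 97.4 CPM, and 16 and 2 in larvae, 537 ± 328 CPM. The stages did not overlap and it passed as higher in adults (log2 change 1.46 ± 0.67 SE, adjusted p = 0.0444, edgeR). The call was lost with library totals in place of TMM factors (0.0707, edgeR), with DESeq2 (adjusted p = 0.0836), and without any 1 of the 4 libraries (0.0744 to 0.310, edgeR).

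In the other adult-higher pairs the counts were at 0 in larvae, which at this depth bounds the change only loosely. F275-R291 (11.1 kb) had 29 and 29 counts in adults, F273-R264 (5.46 kb) had 27 and 28, and F267-R272 (3.28 kb) had 31 and 27. By the mean of the adult libraries they were higher by at least 5.45-fold, 5.19-fold and 5.35-fold. In adult replicate 1, the lower library, these bounds were 4.04-fold, 3.76-fold and 4.32-fold. F273-R281 (6.04 kb) had 29 and 25, F265-R264 (0.581 kb) had 29 and 20 and F277-R283 (4.04 kb) had 37 and 13. Their lower bounds were 4.98-fold, 4.39-fold and 4.12-fold by the mean, and 4.04-fold, 4.04-fold and 3.08-fold in the lower adult library of each pair. None of these 6 calls held without larvae replicate 1. Without adult replicate 2, F277-R283 did not pass and the other 5 were not tested. Without adult replicate 1, F265-R264 and F273-R281 did not pass and F277-R283 was not tested. These 6 pairs passed the filter through adults alone, so neither the calls nor their loss add to the bounds. F271-R281 (6.97 kb) had 42 and 19 counts in adults and 4 and 0 in larvae (log2 change of 2.16 ± 0.94 SE, adjusted p = 0.0322, edgeR). DESeq2 gave an adjusted p of 0.0655 for it, and it was also lost without any 1 of the libraries (0.115 to 0.391, edgeR).

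Several strong pairs did not pass the test. F285-R283, 0.181 kb apart, had 96 and 23 counts in adults and 34 and 19 in larvae (1032 ± 615 and 2270 ± 899 CPM, adjusted p = 0.169, edgeR). F263-R264 (0.797 kb), next to the border, had 64 and 44 counts in adults and 31 and 3 in larvae (1060 ± 117 and 975 ± 729 CPM, adjusted p = 0.863, edgeR). F277-R272 (3.41 kb) had 89 and 37 counts in adults and 29 and 2 in larvae (adjusted p = 0.567, edgeR). F267-R264 (1.90 kb) had 31 and 32 and then 21 and 10 (adjusted p = 0.365, edgeR). For F285-R283 and F267-R264 both larvae libraries lay above both adult libraries in CPM, and for F263-R264 and F277-R272 the stages overlapped. F273-R286 (7.64 kb) had 2 and 2 counts in adults and 7 and 24 in larvae, and did not pass the filter.

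For each primer, counts with flank partners were summed and tested together with the sums of all primers with each of 4 regions. Of the 31 flank primers tested, 12 were higher in larvae (38.7%) and 2 were higher in adults (6.45%), against 23.7% and 31.3% (55% in either direction) of the 527 sums tested in the whole domain (edgeR quasi-likelihood test, Benjamini-Hochberg over all 527). They were 5 of 12 tested in bin 1, 2 of 8 in bin 2, 0 of 2 in bin 3 and 5 of 9 in bin 4. The larvae-higher primers were the 5 neighbours F271, R272, F273, R274 and F275 in bin 1, R281 and F287 in bin 2, and R302, F303, R304, F307 and R310 toward the far end. Each flank pair counts in the sum of its forward primer and in that of its reverse primer, so these calls are not independent. The 5 neighbours share the pairs F271-R272, F273-R272, F275-R272 and F273-R274. Likewise F303 and R302 share a strong pair, and so do F307 and R310.

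R272 took 0.260% and 0.218% of the counts with flank partners in the 2 adult libraries and 1.61% and 0.703% in the 2 larvae libraries (log2 change -2.30 ± 0.29 SE, adjusted p = 3.06e-13, edgeR). F273 took 0.142% and 0.208% in adults and 0.851% and 0.902% in larvae (log2 change -2.30 ± 0.31, adjusted p = 9.19e-12, edgeR). R281 took 0.153% and 0.172% in adults and 0.808% and 0.612% in larvae (log2 change -2.13 ± 0.32, adjusted p = 9.36e-10, edgeR). For all 3 both larvae libraries lay above both adult libraries. F275, F271 and R274 changed by -2.30, -1.99 and -1.92 on the same scale, F307, R310, F287 and F303 by -1.91, -1.78, -1.65 and -1.29. Of the counts of R281 with flank partners, F285-R281 alone held 100 of 168 and 29 of 40 in larvae. In adults it held 12 of 100 and 4 of 66. The change of R281 without this pair was not tested.

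Of the 5 bin 1 primers, 3 did not pass without their closest partners. With only pairs at least 1 kb apart, R272 turned to 1.07 (adjusted p = 0.0973, edgeR), and F273 and F271 had -0.62 and -0.47 (adjusted p = 0.304 and 0.444, edgeR). F275 and R274 still passed, with -2.02 and -1.39 (adjusted p = 0.000868 and 0.0268, edgeR). Elsewhere F287 and F303 did not pass (adjusted p = 0.529 and 0.0914, edgeR), and R302 turned to 1.25 (adjusted p = 0.137, edgeR). The call of F275 rested on larvae replicate 1, without which its adjusted p was 0.125 (edgeR). F307 did not pass without adult replicate 1 (adjusted p = 0.0939, edgeR), and F303, R310 and F287 did not pass when either adult library was left out (0.100 to 0.424, edgeR). F287 was also lost without larvae replicate 1 (adjusted p = 0.264, edgeR) and with DESeq2 (adjusted p = 0.0857). R302 and R304 passed without larvae replicate 2 but not without any other 1 library (0.0729 to 0.644, edgeR), nor with DESeq2 (adjusted p = 0.0530 and 0.112). In all, 6 and 7 flank primers were higher in larvae without adult replicate 1 and 2.

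The 2 primers higher in adults were R278 and R293. R278 took 0.289% and 0.473% of the counts with flank partners in adults and 0.111% and 0.153% in larvae (log2 change of 1.63 ± 0.42 SE, adjusted p = 0.000464, edgeR), without overlap. Without adult replicate 2 it did not pass (adjusted p = 0.295, edgeR). R293, in bin 3, had 86 and 41 counts with flank partners in adults. It had none in either larvae library, which makes it higher in adults by at least 10.8-fold by the mean of the adult libraries. It was not silent in larvae, where it had 76 and 27 counts with partners outside the flank.

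**Figure D4:**
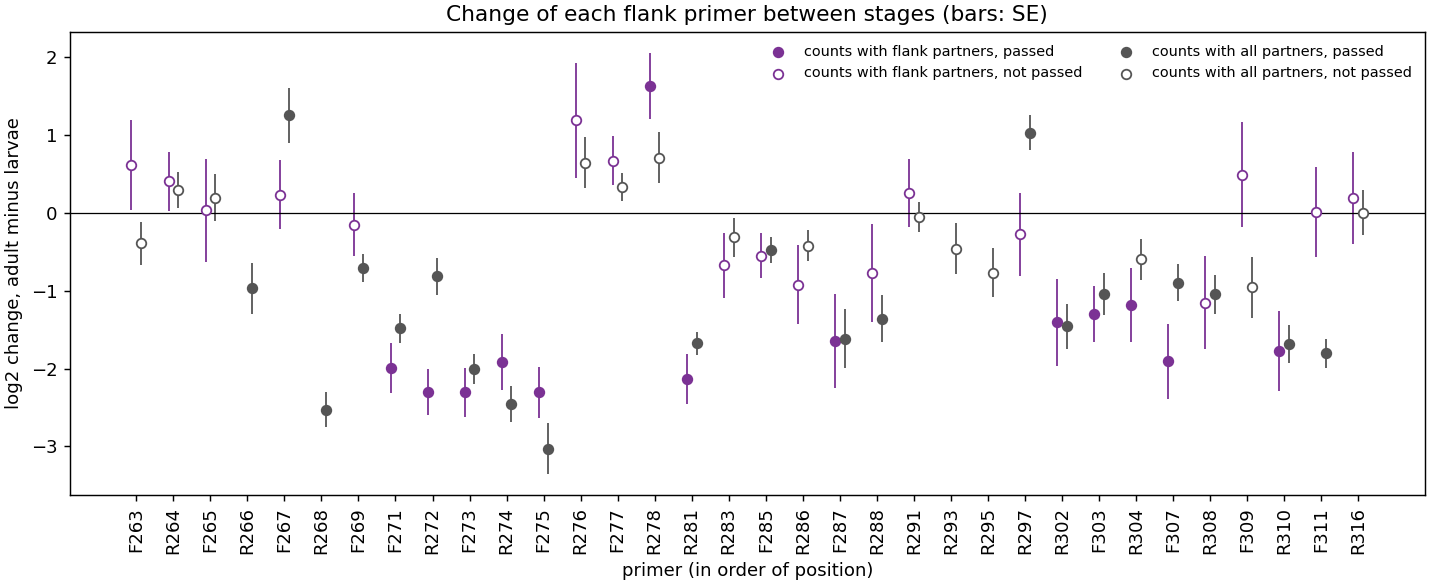
Log2 change (adult minus larvae, bars show SE) of each flank primer in order of position, for counts with flank partners and for counts with all partners. Filled points passed the edgeR test. Most points lie below 0, the points for flank partners are lowest at R272, F273 and F275, and R293 with flank partners is left out because its larvae counts were 0.

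Over all partners, 18 of the 34 flank primers were higher in larvae (52.9%) and 2 were higher in adults (5.88%), against 29.6% and 25.9% (55.6% in either direction) of the 162 primers tested in the whole domain (edgeR, Benjamini-Hochberg over all 162). The sums over all partners contain the counts with flank partners, so some overlap of the calls is built in. Of the 12 primers higher in larvae with flank partners, 11 were among these 18. The exception was R304 (adjusted p = 0.0809 over all partners, edgeR). With the replicate number as a term, 11 primers were higher in larvae and 0 in adults (2 at an unadjusted p under 0.05, edgeR). Without adult replicates 1 and 2 in turn, 10 and 11 primers were higher in larvae. Those higher in adults numbered 0 without adult replicate 2 (2 at an unadjusted p under 0.05, edgeR), 1 without larvae replicate 1 and 4 without larvae replicate 2. With partners in the low-coordinate flank 12 of 26 tested flank primers were higher in larvae (46.2%) and 5 in adults (19.2%). With the neighbouring central block these numbers were 11 (37.9%) and 5 (17.2%) of 29, and with the other central block 4 (22.2%) and 5 (27.8%) of 18. The shares over all 527 sums of this kind were 23.7% and 31.3%.

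For each primer the change of its flank contacts was also set against the change of its other contacts. The test was added after the data were seen. It was passed by 12 of the 34 flank primers (35.3%), which is near the background of 40.5% of the 163 primers tested in the whole domain (edgeR with library as a term, Benjamini-Hochberg over all 163). In 6 of them (R293, F311, F263, R274, F275 and F309) the flank contacts were shifted toward adults relative to the other contacts, and in 6 (R272, F267, R297, F307, F271 and R304) toward larvae. R272 had 170 and 84 counts with flank partners and 425 and 400 with others in adults, and 335 and 46 with flank partners and 139 and 43 with others in larvae (difference of log2 changes -2.57 ± 0.47 SE, adjusted p = 0.00195, edgeR). F311, at the far end, had 95 and 50 counts with flank partners and 110 and 80 with others in adults, and 31 and 8 against 213 and 59 in larvae (2.38 ± 0.40, adjusted p = 0.00122, edgeR). These 12 primers are named because they passed, not by a rule for named primers. When either adult library was left out, 0 of the 34 primers passed this test, and 8 had an unadjusted p under 0.05 in each case (edgeR).

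The pairs with a read were nearly the same in both libraries of a stage and largely different between stages. In adults, 89 and 87 flank pairs had a read, and all 87 of replicate 2 were among the 89 of replicate 1. In larvae, 61 and 54 had a read, and 53 were shared. Between adult replicate 1 and larvae replicate 1 the shared pairs numbered 33, which is 37.1% of the adult and 54.1% of the larvae pairs. Among the other pairs of the domain these libraries shared 575, which is 29.99% of the adult and 58.26% of the larvae pairs. The low overlap between stages was thus not particular to the flank. Library totals ran from 6539 counts (larvae replicate 2) to 65450 (adult replicate 1), so weak pairs may have been missed in the smaller libraries. Over the whole flank 56 pairs had reads in adults only, 29 in larvae only, 33 in both stages and 162 in no library. The adult-only pairs held 42.8% and 43.2% of the flank counts in the adult libraries, and the larvae-only pairs held 47.6% and 34.8% in the larvae libraries. The numbers of pairs read in a single stage, and the counts they held, were not set beside those of the other pairs of the domain. Whether they are particular to the flank was therefore not tested.

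Across the 118 pairs with a read, Pearson's r of log2(CPM + 10) was 0.951 in adults and 0.868 in larvae between the replicates. It was -0.20 to -0.22 between adult and larvae libraries. Pairs share primers and libraries and were taken because they had a read, so these values are descriptions. Among the other pairs of the domain r was 0.927 and 0.808 within stages and -0.05 to 0.06 between them. The libraries of a stage differed by more than counting error: flank pairs with at least 10 reads gave a chi-square over degrees of freedom of 2.57 in adults (63 pairs) and 4.33 in larvae (38 pairs).

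**Figure D5:**
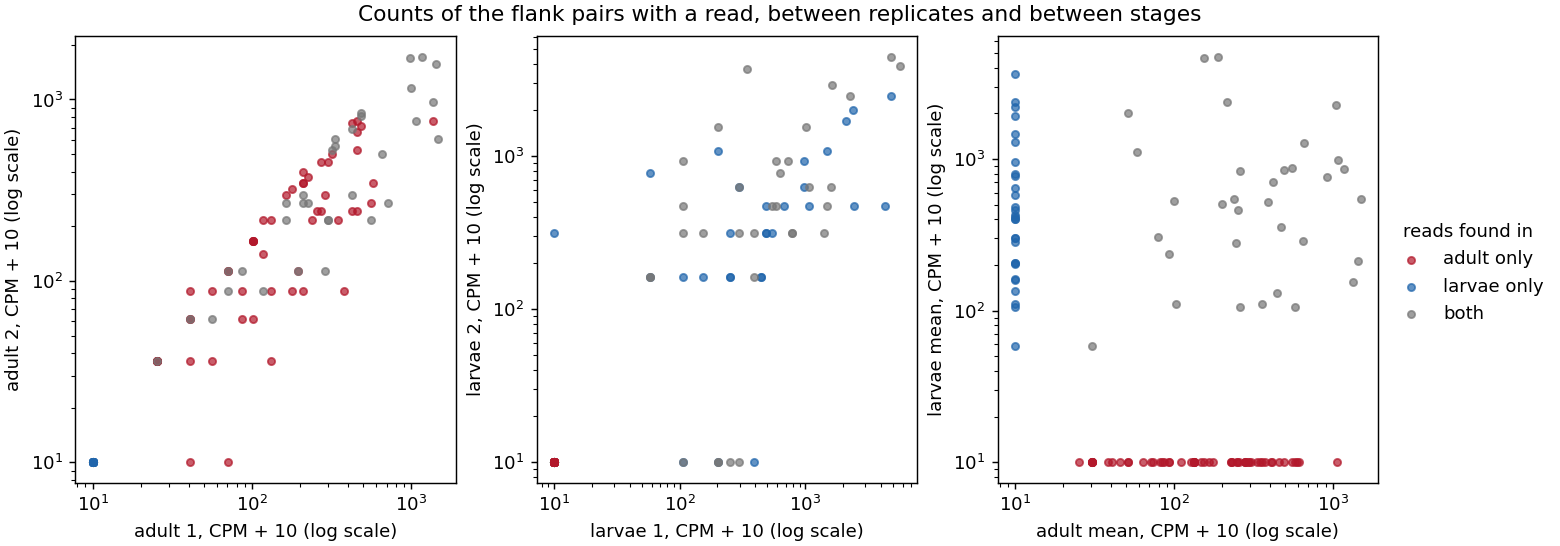
CPM + 10 (log axes) of the 118 flank pairs with a read, between adult libraries (left), between larvae libraries (middle) and between stage means (right), coloured by the stage in which reads were found. Replicates lie along the diagonal, while 56 adult-only and 29 larvae-only pairs lie on the axes of the comparison between stages.

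More flank pairs had a read in adults at full depth. A read was found for 31.8% and 31.1% of the flank pairs in the adult libraries and 21.8% and 19.3% in the larvae libraries. At the total of the smallest library, 6539 counts, the expected shares were 20.8%, 21.3%, 18.7% and 19.3%, closer to each other than at full depth. For all other pairs of the domain they were 19.3% and 18.9% in adults and 12.3% and 12.8% in larvae at that depth. The counts of the flank were more concentrated in larvae, where 8 pairs held 50% of them in each library, against 15 pairs in each adult library. The 10 strongest pairs held 41.3% and 38.8% of the flank counts in adults and 58.0% and 57.3% in larvae.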

How the data were processed

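The authors deposited 1 matrix of whole-number read counts per library, with forward primers in rows and reverse primers in columns and no normalization, per the file headers and values. The tools bcl2fastq 1.8.4 and Bowtie2 2.2.2 and the build danRer7 are named per the submitters' processing notes. The sources used here do not give the enzyme, the filters or the assignment of reads to pairs. Primer positions are those in the primer names. Gene positions and primer sequences were not used here.

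Stages were compared in R 4.3.3 by edgeR 4.0.16 (quasi-likelihood test, TMM factors, a single term for stage) after filterByExpr at its defaults (minimum count 10, minimum total 15), fitted on all features of the domain and adjusted by Benjamini-Hochberg with a threshold of 0.05. SE values were derived from the quasi-likelihood F. On simulated counts for 603 pairs, edgeR called the 137 changed pairs that passed the filter (by 3 on the log2 scale), with 0 false calls. False calls numbered 7 among 514 sums by region, 1 among 162 sums over all partners, 2 among 111 bin pairs and 1 among 163 primers in the added test. Changed pairs were drawn from those with an expected count above 3 in the smallest library, at a fixed spread that was not estimated from these libraries. Recovery of pairs with fewer reads was therefore not checked. Smaller changes were not simulated. No pair was set to have reads in 1 stage only, as 17 of the 39 flank pairs tested had. The numbers of false calls hold for the simulated counts alone. Named pairs are the 12 with the highest mean CPM and the 10 with the smallest adjusted p in each direction. Named primers follow the same rule of 10, and R302 and R304, which also passed, were added after their values were seen. Pairs at 0 in a stage have a bound from 3 counts over that stage's libraries, set against the mean CPM of the other stage unless a single library is named. The members and rules were chosen with earlier results of these data known. Shares, slopes and observed over expected were computed with Python 3.11.15, numpy 2.4.6 and pandas 2.3.3. The alternatives were DESeq2 1.42.0, other normalization, filters, depths and borders, and leaving out each library.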

Additional observations from a re-analysis of the deposited data

How the results depend on the processing

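Depth limits single pairs: larvae replicate 2 has 302 flank counts, and a pair at 0 in larvae has only a loose bound. Leaving out 1 library at a time gave 1 to 20 flank pairs higher in adults and 5 to 14 higher in larvae. It gave 1 to 3 and 6 to 14 flank primers by flank partners, 0 to 4 and 10 to 21 by all partners, 0 and 2 to 4 bin pairs, and 0 to 14 primers in the added test of flank against other partners. The ratio of larvae to adults stayed at 1.68 to 2.00 for the share of counts, 2.10 to 2.28 for observed over expected and 1.10 to 1.16 for the part kept within the flank. With no filter 41 pairs were higher in adults and 31 in larvae, and 1 bin pair was higher in adults. Thinned to one depth, 1 and 6 pairs passed, 1 primer was higher in adults by flank partners and 1 by all partners. Of pairs with a read in both stages 2 and 5 passed. With the border 4 kb higher 7 pairs were higher in adults. With pairs at least 1 kb apart 4 and 7 primers passed by flank partners. With 5 kb bins 3 and 7 bin pairs passed. Libraries with equal replicate numbers did not deviate together (r = 0.0059 over 679 pairs), so the numbers were not taken to pair them. In the fit with a replicate block, 0 and 11 primers passed by all partners, and F269-R297 (adjusted p = 0.0683, edgeR) and R304 with flank partners (adjusted p = 0.105, edgeR) were lost. The block changed no other call of a named pair, flank-partner sum or bin pair. The ratio of shares was 2.17 without the 3 strongest pairs of the domain, 1.34 and 1.19 for pairs at least 1 and 5 kb apart, and 1.60 and 2.27 with the border 4 kb lower and higher. The ratio of observed over expected was 2.01 with the 3 strongest pairs in the expectation, 1.72 and 1.64 for pairs at least 1 and 5 kb apart, 2.02 without the strongest flank pair, and 1.92 and 2.68 with the border lower and higher. It turned to 0.675 with primer terms. The ratio of the part kept within the flank turned to 0.883 and 0.789 for pairs at least 1 and 5 kb apart, and was 1.06 without the strongest flank pair and 1.04 and 1.34 with the border lower and higher. Slopes over pairs above 0 were -0.22 in adults and -0.23 in larvae, and over pairs at least 1 kb apart -0.72 and -0.99. The share of flank pairs with a read fell from 31.4% to 21.1% in adults at one depth. R272 and R302 with flank partners turned to 1.07 and 1.25 for pairs at least 1 kb apart. The causes of these moves were not tested, apart from fewer samples, pairs or reads where the alternative removes them. Among single pairs, primers and bin pairs named, 60 of the values under an alternative lost the threshold, 2 gained it and 413 kept the same side of it. The direction was not always kept among those that did not pass: F263-R264 and F277-R272 changed sign under some alternatives. A further 14 calls could not be tested when 1 library was left out, 7 of them larvae-only pairs without larvae replicate 1.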
